A study of Homo sapiens with 6 samples.

Results

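The 10 genes described here act as feedback regulators or progenitor-cell targets of the Wnt pathway: AXIN2, NKD1, RNF43, ZNRF3, LGR5, NOTUM, APCDD1, SP5, ASCL2 and SOX9. They were chosen by name, with earlier results of these data known, as 10 of the 60612 genes in the table, and each name matched 1 row. Expression was measured by RNA-seq in HCT116, an established line from a human colorectal cancer that carries an activating mutation in the beta-catenin gene. The line was treated for 2 days with a control siRNA, si NC, or with PLOD3 siRNA, in 3 samples each. PLOD3 encodes a collagen-modifying lysyl hydroxylase. The sample titles number each group from 1 to 3, and the numbers were read here as replicates. The titles do not say whether the siRNA sequence differed between samples. All 6 samples were the same line in the same medium, and the labels do not state whether a group came from separate cultures, so p-values here reflect spread among samples that may be technical.

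In Wnt signaling, secreted Wnt proteins bind Frizzled and LRP receptors, the complex that marks beta-catenin for destruction is held back, and beta-catenin enters the nucleus and switches on genes together with TCF and LEF factors. Several of those genes encode brakes on the pathway, so that a cell with active signaling makes its own inhibitors. In the intestinal crypt the same signal keeps stem and progenitor cells dividing, and colorectal cancers usually carry it switched on.

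The summed estimated counts were 55416555 to 76802428 per sample. About 4 count units stood for 1 read pair, since the mean number of genes per sample was 1490.3 for a count of 4 but 557.7 for 3 and 312.2 for 5. PLOD3 itself, the check on the labels, was at 6.40, 7.16 and 6.22 FPKM (read fragments scaled for transcript length and sequencing depth) with si NC against 3.44, 3.403 and 4.05 with PLOD3 siRNA. Its mean with PLOD3 siRNA was 55.1% of that in si NC. The log2 change in edgeR was -0.85 (SE 0.107, adjusted p = 0.00350), and -0.54 after a correction for transcript GC content (edgeR adjusted p = 0.00647). Of 8 markers of colorectal epithelium, 6 had a mean FPKM of at least 1, EPCAM, KRT8, KRT18, KRT19, CDH1 and CDX2. VIL1 and LGALS4 had reads but stayed below that mean. The summed FPKM of the 8 was 665.6 to 719.6 with si NC against 562.4 to 638 with PLOD3 siRNA. Markers of other cell types were low. The 9 fibroblast genes summed to 2.66 to 2.89 with si NC against 1.52 to 1.93 with PLOD3 siRNA, with COL1A1 alone averaging at least 1 FPKM and no reads for DCN, LUM and FAP. The 9 leukocyte genes summed to 3.85 to 5.48 and 3.29 to 4.13, with HLA-DRA and CD68 averaging at least 1 FPKM and no reads for PTPRC and CD3E, and the 8 endothelial genes to at most 0.321 in any sample, with no reads for CDH5 and EMCN.

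Of the 10 genes, 7 were detected at more than a few reads, and all 7 were lower in every PLOD3 siRNA sample than in any si NC sample. The tests covered the 12000 genes whose FPKM averaged 1 or more over the 6 samples, which included 6 of the 10. All 6 fell in edgeR's quasi-likelihood test at an adjusted p under 0.05, and 0 rose. The same test called 19.3% of the 12000 genes lower and 16.2% higher. Of the 10 genes 4 lie on chromosome 17, AXIN2, RNF43, NOTUM and SOX9. Among the 774 tested genes of that chromosome 26.7% were called lower. Since the 10 were chosen with earlier results of these data known, the contrast with such shares is only a description. Of the 6, 5 fell by at least 1.5-fold, as did 9.17% of all tested genes, and the groups were separate in that direction in 27.5% of all tested genes. The median log2 fold change of the 6 was -0.70, against 0.00 for all tested genes. NKD1 reached the minimum through si NC alone (means of 1.35 and 0.911 FPKM), so its lower level with PLOD3 siRNA is no independent support for the count. The other 5 were all called lower, with a median of -0.76. SP5 was detected below the minimum, LGR5 had a few reads, and ASCL2 and APCDD1 had none.

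SP5 encodes a zinc finger transcription factor that is a direct Wnt target in many tissues and damps other Wnt targets. It is shown first because its promoter holds the DNA letters that TCF and LEF factors recognize. RefSeq promoter sequences were matched by symbol for 3 of the 10 genes, and the 250 bases upstream of each annotated start were searched for CTTTGAT and CTTTGAA on both strands. SP5 had 3 matches and the RNF43 and APCDD1 windows had none. The window below lies directly upstream of the SP5 start on chromosome 2 (GRCh38.p14, plus strand, chr2:170715087-170715336), outside the transcribed part of the gene, and the matches are in capitals.
SP5: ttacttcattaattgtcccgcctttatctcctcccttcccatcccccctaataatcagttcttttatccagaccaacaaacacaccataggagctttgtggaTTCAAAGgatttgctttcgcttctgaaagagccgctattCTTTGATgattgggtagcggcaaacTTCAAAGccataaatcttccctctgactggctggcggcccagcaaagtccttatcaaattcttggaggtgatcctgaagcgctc
The outer 2 matches read CTTTGAA on the strand opposite to the gene, 148 to 142 and 84 to 78 bases before the start, and the middle one reads CTTTGAT on the gene's own strand, 109 to 103 bases before it. At least 1 match was present in 5.96% of 34943 RefSeq windows of this length, and at least 3 in 0.0200% (7 windows). A match is a stretch of letters, and the data here hold no measurement of factor binding.

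SP5 (ENSG00000204335, chromosome 2, 170715337 to 170718078, plus strand) stood at 0.407, 0.633 and 0.513 FPKM with si NC against 0.150, 0.256 and 0.218 with PLOD3 siRNA. Every treated sample was below every control, and the mean with PLOD3 siRNA was 40.2% of that in si NC. These levels rest on 57, 101 and 96 count units with si NC against 27, 35 and 30 with PLOD3 siRNA, which is about 7 to 25 read pairs a sample. In the edgeR fit on the 19840 genes averaging 0.1 FPKM or more, of which 12.4% were called lower, the log2 fold change was -1.29 (SE 0.332, adjusted p = 0.0361). The call was lost in 5 of the 6 edgeR fits that left out a sample (adjusted p = 0.0535 to 0.103), kept only without si NC replicate 1 (0.0475), and not made once GC content was corrected (log2 -0.94, adjusted p = 0.0928).

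**Figure D1:**
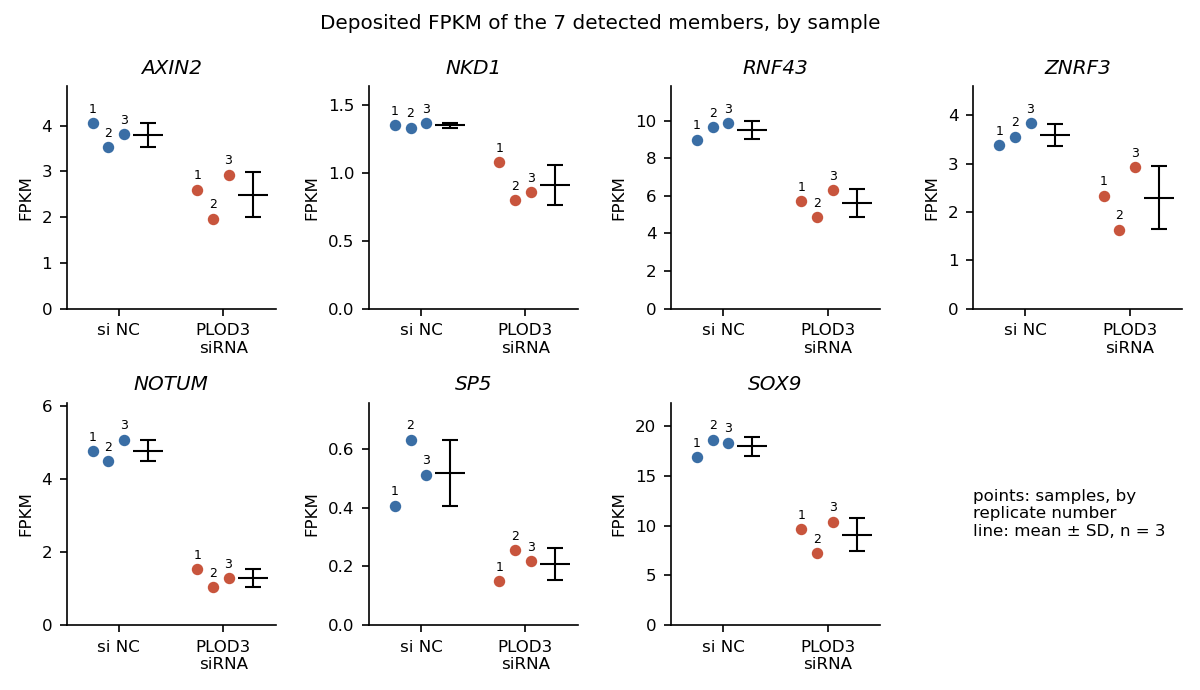
Deposited FPKM (vertical axis, from 0) of the 7 detected genes in the 3 si NC samples (blue) and the 3 PLOD3 siRNA samples (red), numbered by replicate, with the mean and SD (n = 3) beside them. In each of the 7 panels every red point lies below every blue point.

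NOTUM, a secreted enzyme that removes the lipid from Wnt proteins and so inactivates them, had the largest fall of the 6 tested genes. NOTUM (ENSG00000185269, chromosome 17, 81952507 to 81961187, minus strand, GRCh38) was at 4.76, 4.48 and 5.07 FPKM with si NC against 1.53, 1.04 and 1.28 with PLOD3 siRNA. The highest treated sample was thus far below the lowest control. The mean with PLOD3 siRNA was 26.9% of that in si NC, or -1.89 on the log2 scale in edgeR (SE 0.151, adjusted p = 0.00182), and 31 of the 12000 tested genes had a lower value. The call was kept under all 20 alternatives in which NOTUM was tested, with log2 values from -2.02 to -1.34. No other gene of the table overlaps NOTUM.

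APCDD1, a membrane glycoprotein that binds Wnt and its co-receptor and blocks signaling, had a count of 0 in all 6 samples. A count of 0 allows up to 3 read pairs, or about 12 count units, which is 0.156 to 0.217 CPM (counts scaled to the library total) in these samples. That limit covers counting error only.

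RNF43 and ZNRF3 are paralogous membrane ubiquitin ligases that remove Frizzled receptors from the cell surface, and R-spondins switch them off through LGR receptors. RNF43 (ENSG00000108375, chromosome 17, 58353676 to 58417595, minus strand) was at 8.99, 9.65 and 9.87 FPKM with si NC against 5.71, 4.85 and 6.29 with PLOD3 siRNA. The groups were well apart. The treated mean was 59.1% of the control mean, and the log2 change was -0.76 in edgeR (SE 0.0988, adjusted p = 0.00386). The RNF43 call was kept under all 21 alternatives. ZNRF3 (ENSG00000183579, chromosome 22, 28883572 to 29057488, plus strand) was at 3.38, 3.55 and 3.84 FPKM with si NC against 2.33, 1.63 and 2.92 with PLOD3 siRNA. Here the treated samples were spread widely, and replicate 3 came near the lowest control. The treated mean was 63.95% of the control mean, and the log2 change was -0.65 in edgeR (SE 0.191, adjusted p = 0.0400). Of the 6 tested genes ZNRF3 had the least secure call: it was kept in 1 of the 6 edgeR fits that left out a sample, without PLOD3 siRNA replicate 3 (adjusted p = 0.0196), with 0.0584 to 0.110 without each of the others, and it was not made once GC content was corrected (log2 -0.55, adjusted p = 0.0831).

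The ratio of RNF43 to ZNRF3 FPKM was 2.66, 2.72 and 2.57 with si NC against 2.45, 2.97 and 2.15 with PLOD3 siRNA. These ranges overlapped (two-sided exact permutation p = 0.7), and no difference between the falls of the 2 ligases was detectable with 3 samples a group.

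LGR5, the R-spondin receptor that marks intestinal stem cells, had counts of 8, 0 and 0 with si NC against 15, 0 and 8 with PLOD3 siRNA. At about 4 units per read pair these are at most a few read pairs, 3 of the 6 samples had none, and no comparison was made. Its relative LGR4, also an R-spondin receptor, was at 1.96 ± 0.335 FPKM with si NC against 1.68 ± 0.315 with PLOD3 siRNA (SD, n = 3 each), with overlapping groups and no call (log2 -0.22, edgeR adjusted p = 0.345).

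AXIN2 and NKD1 act inside the cell, AXIN2 as a scaffold of the complex that destroys beta-catenin and NKD1 as a partner of Dishevelled that dampens the signal. AXIN2 is widely used as a readout of active Wnt signaling. AXIN2 (ENSG00000168646, chromosome 17, 65528563 to 65561648, minus strand) was at 4.06, 3.53 and 3.82 FPKM with si NC against 2.60, 1.96 and 2.92 with PLOD3 siRNA. The groups did not overlap, and the treated mean was 65.6% of the control mean (log2 -0.61, SE 0.139, edgeR adjusted p = 0.0185). The AXIN2 call was lost without si NC replicate 3 (adjusted p = 0.0573) and without PLOD3 siRNA replicate 1 (0.0540), and after the GC and length correction (log2 -0.42, adjusted p = 0.0591). NKD1 (ENSG00000140807, chromosome 16, 50548396 to 50649249, plus strand) was at 1.35, 1.33 and 1.37 FPKM with si NC against 1.08, 0.800 and 0.856 with PLOD3 siRNA. Its controls lay close together, the treated samples lay lower and farther apart, and the treated mean was 67.5% of the control mean (log2 -0.56, SE 0.117, edgeR adjusted p = 0.0133). The NKD1 call held in all 6 fits that left out a sample, and the log2 value was -0.38 after the GC and length correction (edgeR adjusted p = 0.0361).

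SOX9, a transcription factor of crypt progenitor and Paneth cells, had the highest level of the 10 genes. SOX9 (ENSG00000125398, chromosome 17, 72121020 to 72126416, plus strand) was at 16.9, 18.6 and 18.3 FPKM with si NC against 9.62, 7.22 and 10.4 with PLOD3 siRNA. The treated mean was 50.6% of the control mean, and the highest treated sample was well below the lowest control (log2 -0.98, SE 0.129, edgeR adjusted p = 0.00388). The call was kept under all 21 alternatives. ASCL2, a transcription factor that sets intestinal stem cell fate, had a count of 0 in all 6 samples, with the same limit as APCDD1.

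**Figure D2:**
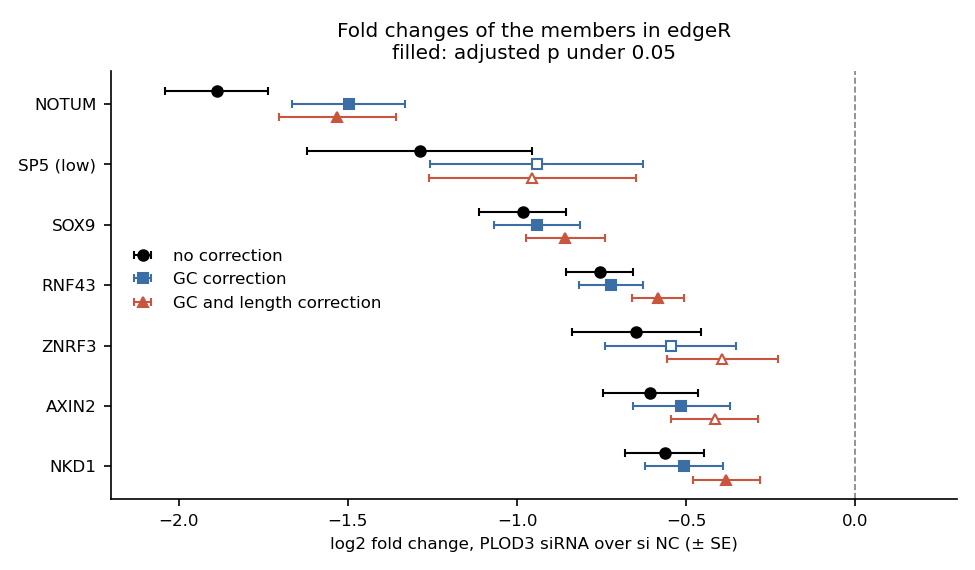
Log2 fold change of PLOD3 siRNA over si NC (horizontal axis) with its SE for the 7 detected genes, from edgeR without correction (black), with the GC correction (blue) and with the GC and length correction (red); filled symbols have an adjusted p under 0.05, and SP5 comes from the fit with the lower FPKM minimum. All symbols lie left of 0, and ZNRF3 and SP5 are open after the GC correction.

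FPKM is per transcript length, so levels of different genes can be set side by side as far as the assigned lengths hold. The annotated transcript of NKD1 used for the length correction has 17105 bases, against 2329 for NOTUM. In si NC the order from high to low was SOX9, RNF43, NOTUM, AXIN2, ZNRF3, NKD1 and SP5. Only AXIN2 (3.53 to 4.06 FPKM) and ZNRF3 (3.38 to 3.84) overlapped as neighbours. In PLOD3 siRNA NOTUM came after AXIN2 and ZNRF3, and its range of 1.04 to 1.53 FPKM overlapped that of NKD1, 0.800 to 1.08.

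NOTUM stood lowest of the 6 tested genes, relative to its own controls, in each PLOD3 siRNA sample. The ratio of AXIN2 to NOTUM was 0.852, 0.787 and 0.752 with si NC against 1.70, 1.89 and 2.29 with PLOD3 siRNA. Ratios were compared for 21 pairs among the 7 detected genes. The groups did not overlap in 9 pairs: 5 of the 6 with NOTUM, the exception being its pair with SP5, and the other 4 the pairs of SOX9 with AXIN2, NKD1, RNF43 and ZNRF3. The 4 ratios over SOX9 were all higher with PLOD3 siRNA. The ratio of RNF43 to SOX9, for example, was 0.532, 0.518 and 0.539 with si NC against 0.593, 0.672 and 0.605 with PLOD3 siRNA. For each of the 9 pairs the two-sided exact permutation p was 0.1, the smallest that 3 against 3 samples can give, so none could pass a threshold of 0.05. Among all pairs of tested genes the groups did not overlap in 47.4%, so a count of 9 of 21, or 9 of the 15 pairs among the 6 tested genes, is given only as a description.

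The samples treated with PLOD3 siRNA were not alike. Counts were scaled by TMM, a normalization that aligns the bulk of the genes, and each sample was set against the si NC mean. On that scale all 6 tested genes had their lowest value in PLOD3 siRNA replicate 2, where NOTUM was at 22.7%, SOX9 at 41.8%, ZNRF3 at 47.4%, RNF43 at 53.2%, AXIN2 at 53.8% and NKD1 at 61.7%. In replicate 1 the same genes ranged from 31.7% for NOTUM to 78.8% for NKD1, and in replicate 3 from 26.5% for NOTUM to 80.03% for ZNRF3. Replicate 2 was the lowest of the treated samples in 37.2% of all tested genes. SP5 did not follow this order and was lowest in replicate 1. Without replicate 2 the median log2 fold change of the 6 genes was -0.59, and 5 of the 6 were called lower in edgeR, all but ZNRF3, as were 14.5% of all tested genes in that fit.

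**Figure D3:**
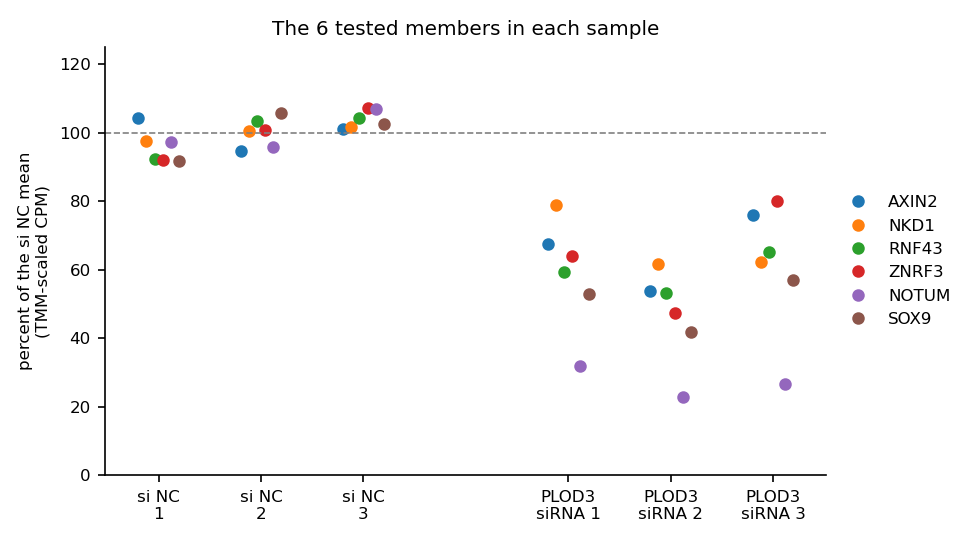
Each of the 6 tested genes in each sample, as a percentage of its si NC mean on TMM-scaled CPM (vertical axis, from 0). The 3 si NC samples lie between 91.8% and 107.3%, and the lowest point of each gene is in PLOD3 siRNA replicate 2.

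Fold changes across all genes went with the GC content of the transcripts, and this touches each result above. The tested genes were split by GC content into 5 bins of equal size. In the bin with the lowest GC content 2.51% were called lower, with a median log2 fold change of 0.28. In the bin with the highest, from 58.6% to 78.7% GC, 40.6% were called lower, with a median of -0.33. NOTUM, at 66.5% GC, lies in that highest bin. AXIN2 (53.1%) and ZNRF3 (53.5%) lie in the next, where 28.6% were called lower, and RNF43 (50.7%), SOX9 (51.03%) and NKD1 (51.6%) in the middle one, where 17.3% were. All 6 lay below the median of their own bin. A correction that removes the trend of each sample with GC content left 5 of the 6 called lower, with a median of -0.63, while 14.5% of all tested genes were then called lower. NOTUM moved from -1.89 to -1.50 (edgeR adjusted p = 0.00394) and stayed the largest fall. With length also corrected 4 of the 6 were called, NOTUM, SOX9, RNF43 and NKD1, with a median of -0.50 and 12.9% of all tested genes called lower.

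**Figure D4:**
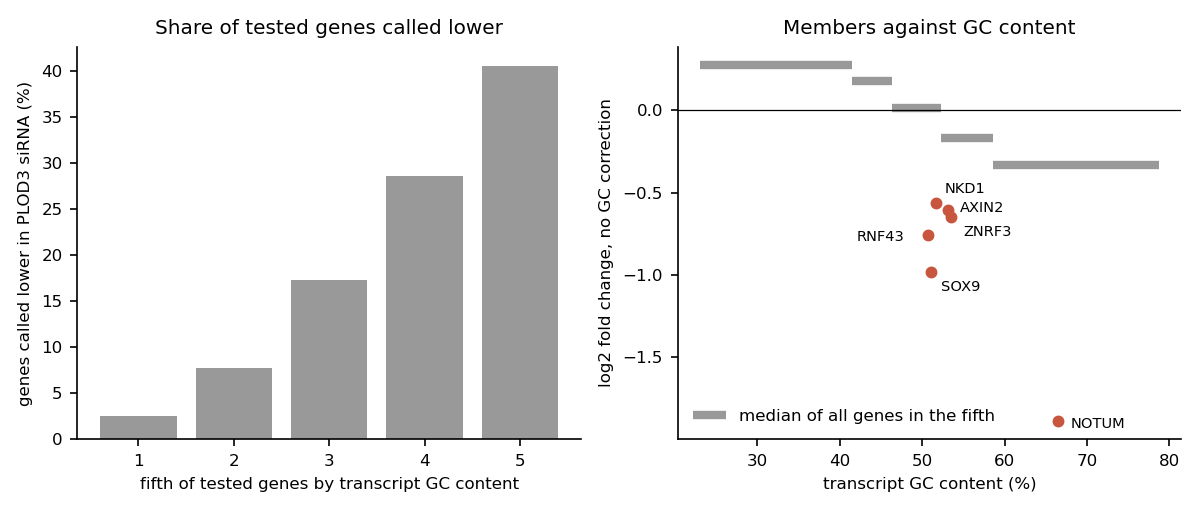
Left, share of tested genes called lower with PLOD3 siRNA (vertical axis, from 0) in each of 5 equal bins of genes by transcript GC content; right, log2 fold change without GC correction against GC content for the 6 tested genes (red) and the median of all genes in each bin (grey bars). The share rises from 2.51% to 40.6% across the bins, and all 6 genes lie below the grey bar of their bin.

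Genes that overlap a member could share its reads, since the sources used here name no strand setting. There were 14 genes in the deposited data that overlapped 7 of the members, and 9 of the 14 lay on the opposite strand. The highest was TSPOAP1-AS1, which overlaps RNF43 on the opposite strand, with a mean of 1.06 FPKM with si NC against 0.561 with PLOD3 siRNA. The overlapping genes on the same strand had means of at most 0.354 FPKM in either group. Single samples reached more. AC004805, which overlaps AXIN2, had 0.611 FPKM in si NC replicate 2 and 0 in each PLOD3 siRNA sample. AC004687, which overlaps RNF43, had 0.602 FPKM in si NC replicate 1. SOX9-AS1, which overlaps SOX9 on the opposite strand, had 0.108 and 0.0404 FPKM. SOX9 and RNF43 themselves stood higher, but whether reads were shared was not tested for any member.

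**Figure D5:**
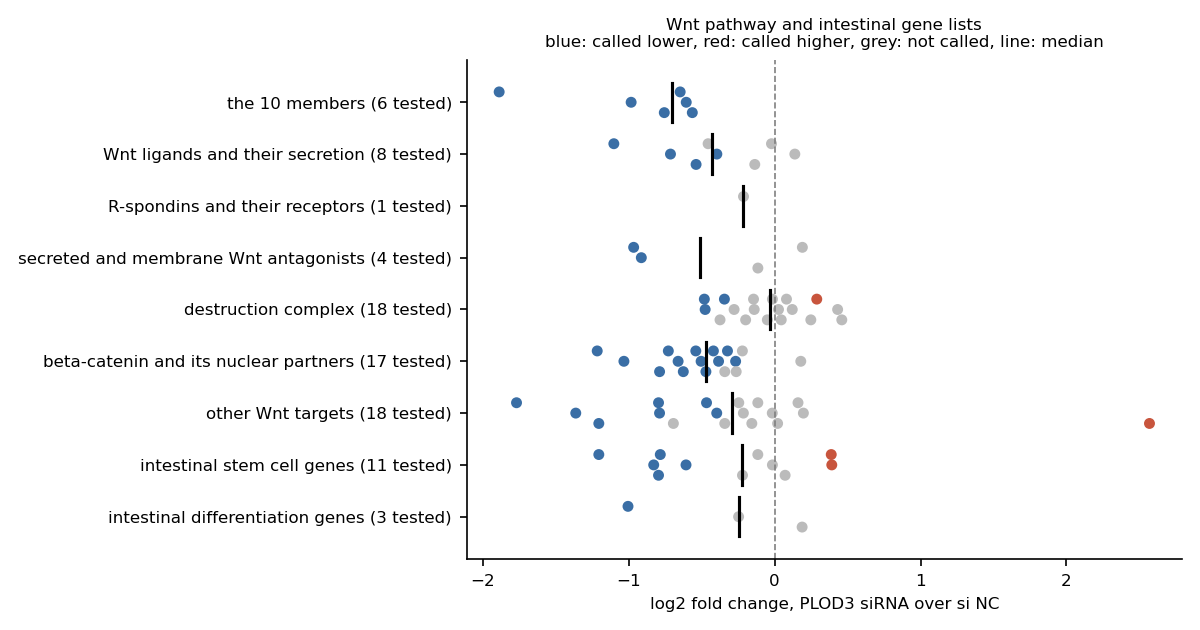
Log2 fold change of PLOD3 siRNA over si NC (horizontal axis) for every tested gene of the 10 described here and of 8 lists around them, with the median of each list as a line. All 6 tested genes of the first row are called lower, while the destruction complex list centres near 0 with genes on both sides.

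The rest of the pathway was counted in lists by role, from ligands and receptors to the destruction complex, nuclear partners and targets. The lists, too, were chosen with earlier results of these data known. Their counts stand beside the shares of all tested genes called in the same fit. These were 19.3% lower and 16.2% higher without correction, 14.5% and 12.9% after the GC correction, 12.6% and 9.22% without si NC replicate 3, and 12.8% and 9.03% without PLOD3 siRNA replicate 1. Of the listed genes called lower, 5 reached the minimum of 1 FPKM through si NC alone, CEMIP, KREMEN2, LRIG1, WNT3A and ZCCHC12, so their lower level is no independent support for the counts. Of 21 Wnt ligands and secretion genes 8 were tested, of which 4 fell and 0 rose, with a median log2 fold change of -0.43. The ligand WNT3A was at 1.43, 1.48 and 1.62 FPKM with si NC against 0.560, 0.728 and 0.809 with PLOD3 siRNA (log2 -1.10, edgeR adjusted p = 0.00692). WNT3 fell by 0.71, WLS, which carries Wnt proteins to the cell surface, by 0.40, and PORCN, the enzyme that attaches their lipid, by 0.54 on the log2 scale. PORCN was not called with GC content corrected (edgeR adjusted p = 0.152) or in 4 of the 6 leave-one-out fits (0.0607 to 0.0695), nor was WNT3 without si NC replicate 3 (0.0535), where 2 of the 8 were called in all.

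Of 19 other secreted and membrane antagonists 4 were tested. The Dickkopf receptors KREMEN1 and KREMEN2 fell by 0.97 and 0.91 on the log2 scale (edgeR adjusted p = 0.00597 and 0.0120), and KREMEN2 lost its call after the GC correction (adjusted p = 0.0987). DKK1, a secreted blocker of the LRP co-receptors and the most abundant of these, was at 77.3, 65.1 and 59.0 FPKM with si NC against 77.98, 78.5 and 72.07 with PLOD3 siRNA. The groups overlapped and DKK1 was not called (log2 0.19, edgeR adjusted p = 0.205). NKD2, the relative of NKD1, was not called either, at 3.46 ± 0.800 and 3.19 ± 0.0450 FPKM (SD, n = 3 each, log2 -0.11, edgeR adjusted p = 0.676).

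The list for the destruction complex, which also holds related kinases and regulators, had a median log2 fold change of -0.03, close to that of all genes. Of its 19 genes 18 were tested, of which 3 fell and 1 rose. The kinases CSNK1D and CSNK1G2 fell by 0.48 each and the scaffold AXIN1 by 0.34 on the log2 scale, and CSNK1A1, the kinase that first phosphorylates beta-catenin, rose by 0.29. With GC content corrected 3 genes of the list were called lower and 0 higher, and of these 4 only CSNK1D was among them (edgeR adjusted p = 0.0403), with 0.293 for CSNK1G2, 0.979 for AXIN1 and 0.812 for CSNK1A1. AXIN1, the paralog of AXIN2, was at 3.29, 3.24 and 3.32 FPKM with si NC against 2.77, 2.24 and 2.74 with PLOD3 siRNA. Whether the 2 paralogs differ in their fall was not tested. The AXIN1 call was kept in 1 of the 6 leave-one-out fits and the CSNK1A1 call in 2 of them.

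Many genes listed as nuclear partners of beta-catenin and TCF fell, corepressors among them. Of 20 such genes 17 were tested, of which 13 fell and 0 rose, with a median log2 fold change of -0.47. After the GC correction 7 were called lower, with a median of -0.31, and 8 without PLOD3 siRNA replicate 1. The calls lost with the GC correction were BCL9L, CTBP1, EP300, SMARCA4, TLE1 and TLE3. TLE2, a Groucho corepressor of TCF, was at 5.26, 6.11 and 5.12 FPKM with si NC against 2.38, 1.93 and 2.75 with PLOD3 siRNA (log2 -1.22, edgeR adjusted p = 0.00305). TCF7L1, a TCF factor that mostly represses, fell by 1.03, the beta-catenin adaptor BCL9 by 0.73, and TLE5, a short Groucho relative, by 0.54 on the log2 scale. These 4 kept their calls under every alternative run. Beta-catenin itself, CTNNB1, named after its values were seen, was at 24.1, 22.07 and 23.5 FPKM with si NC against 27.0, 24.97 and 26.6 with PLOD3 siRNA, with the groups apart. It was not called (log2 0.18, edgeR adjusted p = 0.0528), was called higher under 4 alternatives (adjusted p = 0.0400 with DESeq2 to 0.0474 with its size factors in edgeR), and had a log2 value of -0.0056 after the GC correction.

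Other known Wnt targets were mixed. Of 28 such genes 18 were tested, of which 7 fell and 1 rose, with a median log2 fold change of -0.29. After the GC correction 7 were called lower and 1 higher. Of the 7 lower calls 6 were shared, with BAMBI lost (edgeR adjusted p = 0.0918) and MET gained (0.00614), and the gene called higher was then FOSL1 (0.0366) in place of MYC. EPHB2 and EPHB3, receptors that position cells along the crypt, fell by 1.21 and 0.79, CEMIP, a hyaluronan-degrading protein, by 1.77, and the transcription factor ETS2 by 0.40 on the log2 scale. EPHB2 and CEMIP kept their calls under all 20 alternatives in which they were tested. EPHB3 was not called by edgeR with both GC content and length corrected (adjusted p = 0.0571, log2 -0.37), and ETS2 lost its call without si NC replicate 3 (edgeR adjusted p = 0.0537), where 4 of the 18 were called lower. The gene that rose, MYC, was called on 2 of the 3 treated samples, since PLOD3 siRNA replicate 2 stood at 3.14 FPKM against 37.5 and 38.9 in the others and 4.01 to 5.01 in si NC (edgeR adjusted p = 0.0487). Its call was kept without replicate 2 (0.00333) and lost without any other sample (0.113 to 0.121). MYC lost its call in 14 of 21 alternatives in all, among them the GC correction (adjusted p = 0.0566).

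Of 16 other intestinal stem cell genes, 4 of which are also in the target list, 11 were tested, and 5 fell and 2 rose, with a median log2 fold change of -0.22. MSI1, an RNA-binding protein, was at 6.44, 6.59 and 6.13 FPKM with si NC against 3.88, 3.43 and 3.77 with PLOD3 siRNA (log2 -0.78, edgeR adjusted p = 0.00277). LRIG1, a brake on receptor kinases, fell by 0.83, and MEX3A, an RNA-binding protein of slowly cycling stem cells, by 0.61 on the log2 scale, and EPHB2 and the hyaluronan receptor CD44 (-0.80) made up the 5. MSI1, LRIG1 and MEX3A kept their calls under every alternative run, and CD44 in 2 of the 6 leave-one-out fits. BMI1 and CDCA7 rose by 0.39 each, and neither was called with GC corrected (0.123 and 0.254 in edgeR, adjusted p).

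Genes of differentiated intestinal cells were mostly below the minimum, and 3 of 20 were tested. KRT20, a keratin of mature colonocytes, was at 2.65, 1.94 and 2.28 FPKM with si NC against 0.910, 1.35 and 1.12 with PLOD3 siRNA. KRT20 fell, with the groups apart (log2 -1.01, edgeR adjusted p = 0.0138). CDX2, a factor of intestinal identity, and the carbonic anhydrase CA2 were not called (log2 -0.25 and 0.19, edgeR adjusted p = 0.143 and 0.274).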

How the data were processed

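RNA-seq libraries were made after ribosomal RNA depletion, per the labels' protocols, and StringTie 1.3.4d, cutadapt 1.9 and HISAT2 2.0.4 were used, per the submitters' processing notes. For build, annotation and strand setting: not given in the sources used here. The authors deposited, per the file headers, an FPKM and an estimated count per gene and sample, 12 value columns with 0 left unmapped. The counts are whole numbers and were used as deposited. Of the genes, 96.3% matched GENCODE 29 (GRCh38) by identifier, and 99.9% of those overlapped their annotated position.

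Genes averaging 1 FPKM or more were tested with edgeR 4.0.16 in R 4.3.3 (TMM, quasi-likelihood, two-sided, Benjamini-Hochberg over all 12000 genes, threshold 0.05, all 6 samples, no covariate). Alternatives used limma 3.58.1 on log2(FPKM + 1), DESeq2 1.42.0, other scalings and filters, a replicate block and each sample left out. The GC correction subtracted a loess trend (span 0.5) of each sample against GENCODE transcript GC content, known for 11968 tested genes. The scripts were tested on simulated data. Named genes were the 10 members, PLOD3, up to 4 genes with the smallest p per list, members of counts of 5 or fewer, and overlapping genes. The members and lists were chosen with earlier results of these data known.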

Additional observations from a re-analysis of the deposited data

How the results depend on the processing

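The 7 detected genes were lower in PLOD3 siRNA in each of the 141 alternative values computed for them. The alternatives reuse the same 6 samples, in which the groups of each gene did not overlap. The shared direction is therefore no independent support. Of the 141 values 26 lost the call, 11 for ZNRF3, 9 for SP5, 4 for AXIN2 and 2 for NKD1. The number of the 6 tested genes called lower was 3 with limma on log2(TPM + 1), where all genes gave 1461 lower and 2470 higher (62.8% of calls higher, against 45.6%), and 2 with a mean FPKM of at least 5, where only 2 were tested and all genes gave 1354 and 1192. Leaving out each sample gave 4 to 6 of the 6 genes, with 1509 to 2011 lower and 1083 to 1651 higher among all genes, where the main counts were 2319 and 1945. The lowest came without si NC replicate 3 (1509 and 1106) and without PLOD3 siRNA replicate 1 (1530 and 1083).

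The replicate numbers did not pair the samples (correlations of deviations 0.020, 0.014 and 0.00043). With the replicate block 6 of the 6 genes were called, and 1834 genes were lower and 1471 higher; with the replicate block and GC correction it was 4, and 1202 and 1030. Without a filter on low values ZNRF3 (edgeR adjusted p = 0.0644) and SP5 (0.0548) were not called. Reversed signs: DKK1 (-0.039), AXIN1 (0.062), CDX2 (0.031) and NKD2 (0.25) after the GC and length correction, NKD2 also after the GC correction (0.30), with the block as well (0.32), in TPM (0.011) and without si NC replicate 2 (0.048, with -0.30 to 0.048 over the samples left out), and CTNNB1 after the GC correction (-0.0056) and with the block as well (-0.0056). The cause was not tested. Alternatives for SP5 and for the lists were added after the data were seen. The few reads of SP5 limit its comparison, and LGR5, ASCL2 and APCDD1 could not be compared.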
